A study of Homo sapiens with 8 samples.

Results

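In ST486 cells, 34 of the 1960 genes with 2 or more probes in the deposited expression table (1.73%) carried probes that differed at least 4-fold in their enrichment with Ago2, a difference of at least 2 on the log2 scale, both without and with ectopic miR-155. The measure was the IP/T ratio of a probe, its signal in RNA immunoprecipitated with Ago2 (IP fraction) over its signal in total RNA (T fraction) of the same cells. For each gene the lowest log2 IP/T ratio among its probes was subtracted from the highest, and a gene was retained when this difference reached 2 in both vectors. These 34 genes were represented by 91 of the 14453 probes in the table. The genes were thus chosen by these differences, which are given as a description without a test. The size of the differences depended on the background correction. In 4 settings with a normexp correction, described at the end, 7, 5, 12 and 13 of the 34 genes kept a difference of at least 2. In CASP8 the highest probe had no T signal above background, so its difference was not measured. Taken separately, the threshold was reached by 56 genes in EV-ST486 (2.86%) and by 50 genes in miR-155-ST486 (2.55%).

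ST486 is a cell line of Burkitt lymphoma. The cells were transduced with the retroviral vector MXW-PGK-IRES-GFP, either empty (EV-ST486) or with miR-155 (miR-155-ST486). Cells positive for GFP, the marker that the vector carries, were sorted to check the overexpression of miR-155. Whether the RNA on the arrays came from sorted cells is not stated. Each vector is represented by 1 RNA sample per fraction. Each of the 4 RNA samples (IP and T of each vector) received either dye in turn, and IP and T of one vector were hybridized together in both dye orientations, on 4 whole genome arrays of the Agilent 2-colour format. The labellings are technical repeats of 1 RNA sample per condition (n = 1), so no test was possible, and the spread between dye orientations shows the error of labelling and hybridization only. With 4 arrays, the precision of all values is limited. Where both arrays of a vector are given, the one with T in Cy3 and IP in Cy5 comes first, and EV-ST486 comes before miR-155-ST486. Signals are given as Cy3 before Cy5. The arrays lay on 2 slides, 0 of which held both vectors, so slide and vector cannot be told apart, whereas IP and T of one vector shared their arrays. Of 9 markers of B cells and Burkitt lymphoma on the arrays, 7 were detected in all 4 T channels (among them MS4A1, CD79A, CD79B, CD22, MME and MYC), against 0 of 6 markers of other blood cells. The listed B cell markers PAX5, BCL6 and EBF1, not all of which were on the arrays, were not among the 7. The RNA was from bulk cells, so fewer cells with a transcript and less transcript per cell cannot be told apart.

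Argonaute proteins such as Ago2 hold miRNAs, which pair mostly through their seed with sites in mRNAs, often in the 3′ UTR. Transcripts bound in this way are recovered with Ago2, and the transcripts of one gene can differ in this respect, since alternative splicing and alternative cleavage and polyadenylation remove or add parts of the mRNA. An oligonucleotide probe reports the transcripts that contain its short target, together with any similar transcript that cross-hybridizes. The miRNA by which the vectors differ, hsa-miR-155-5p, is shown here because its seed sets which sites it can pair with. It is encoded at chr21:25573983-25574006 on the plus strand of GRCh38.p14 (RefSeq). Its sequence follows 5′ to 3′, with the seed in capitals.
hsa-miR-155-5p: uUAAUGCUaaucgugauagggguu

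In nearly all of the 34 genes one probe was enriched in the IP fraction and another was not. Taking an IP/T ratio of at least 2 as enriched, the highest probe was enriched and the lowest was not in 33 of 34 genes in EV-ST486 (9.8% of all genes with 2 or more probes) and in 32 of 34 in miR-155-ST486 (9.44% of all). Both counts include CASP8, whose highest probe had no T signal above background. The exceptions were TUBA1C in EV-ST486 and HDAC5 and PAFAH1B1 in miR-155-ST486, with a highest probe at IP/T ratios of 1.98, 1.79 and 1.91. The lowest probe was enriched in 0 of 34 genes in either vector (7.24% of all genes in EV-ST486, 8.16% in miR-155-ST486). Over the 34 genes the log2 IP/T ratio of the highest probe had a median of 2.19 in EV-ST486 (0.98 to 4.70) against 2.17 in miR-155-ST486 (0.84 to 4.90). That of the lowest probe had a median of -0.53 (-1.84 to 0.96) and -0.57 (-1.89 to 0.65). Over all 1960 genes the corresponding medians were 0.11 and 0.06 for the highest and -0.42 and -0.40 for the lowest probe. The lowest probes of the 34 genes thus lay near those of other genes and the highest probes above them. The rule uses these same values.

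**Figure D1:**
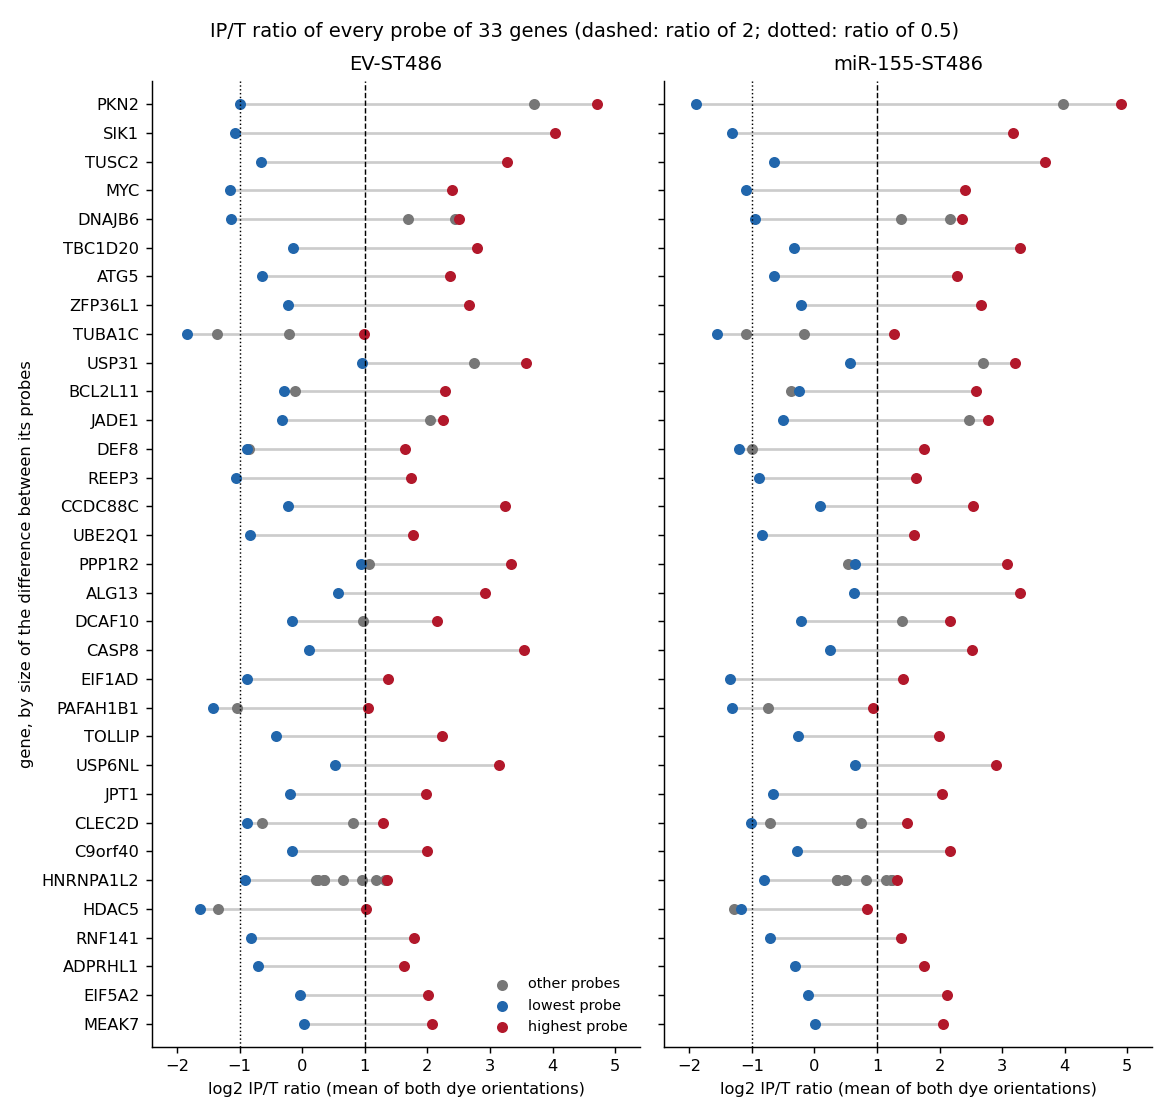
The x axis gives the log2 IP/T ratio of each probe as the mean of both dye orientations in EV-ST486 (left) and miR-155-ST486 (right), and the y axis 33 of the 34 genes by the smaller of their differences in the vectors. Red and blue points are the highest and lowest probe by the mean of both vectors and grey points the other probes. The blue points lie between -1.89 and 0.96 and the red points between 0.84 and 4.90.

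The largest differences were found in 2 protein kinases. PKN2, a protein kinase related to protein kinase C, had 3 probes on 1 RefSeq transcript. Its probe A_24_P387869 had log2 IP/T ratios of 4.87 and 4.54 on the EV arrays and 5.03 and 4.78 on the miR-155 arrays, and A_23_P23227 had 3.57 and 3.82, and 4.02 and 3.93. A_32_P226918 was lower in the IP than in the T fraction on every array, with -1.26 and -0.73 in EV-ST486 and -1.76 and -2.01 in miR-155-ST486. The mean difference between the highest and lowest probe was 5.70 in EV-ST486 against 6.79 in miR-155-ST486, and it was at least 5.27 on each of the 4 arrays. The value thus rests on 2 probes with a high and 1 with a low ratio. Mean log2 T signals in EV-ST486 were 5.94 and 9.30 for the first 2 probes and 16.77 for the lowest. Whether these probes report the same RNA was not tested. The highest probe was detected in 7 of 8 channels, missing in 1 T labelling of EV-ST486. Under 4 settings with a normexp background correction, described at the end, the smaller of the vectors' differences was between 2.66 and 4.38 in PKN2, against 5.70 in the deposited values.

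SIK1, a salt-inducible kinase of the AMPK family, had a highest probe with 3.74 and 4.33 in EV-ST486 and 3.56 and 2.79 in miR-155-ST486. Its other probe had -1.25 and -0.91, and -1.37 and -1.27. The differences between the probes were 5.12 and 4.49. The groups of 4 values did not overlap, an outcome that the rule favoured, since it uses the means of these same arrays. The highest probe was dim, with a mean log2 T signal of 4.68 in EV-ST486 against 14.19 for the other probe. Whether both report the same RNA was not tested. The highest probe was detected in 7 of 8 channels, missing in 1 T labelling of EV-ST486. In the 4 normexp settings the difference of SIK1 was between 0.26 and 1.91.

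TUSC2, a tumour suppressor gene, had one of the differences least affected by processing. Its highest probe had log2 signals in the T fraction of 13.22 (Cy3) and 13.03 (Cy5) in EV-ST486 and 13.06 and 12.78 in miR-155-ST486. In the IP fraction it had 16.56 and 16.23, and 16.74 and 16.47. The IP/T ratios were 9.64 and 12.8, and the signal was higher in the IP than in the T fraction on every array. Its other probe went the other way, from T signals of 11.25 and 10.99 to IP signals of 10.57 and 10.36 in EV-ST486, and from 10.94 and 10.63 to 10.18 and 10.10 in miR-155-ST486. This corresponds to an IP/T ratio of 0.64 in both vectors. The difference was 3.92 in EV-ST486 against 4.33 in miR-155-ST486, it was at least 3.90 on each array, and both probes were detected in all 8 channels.

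Among regulators of transcription, MYC, the transcription factor activated by translocation in Burkitt lymphoma, was the gene with the largest difference. Its probe A_23_P215956 went from T signals of 12.84 and 12.79 to IP signals of 15.25 and 15.16 in EV-ST486, and from 13.15 and 13.11 to 15.68 and 15.40 in miR-155-ST486. Its probe A_24_P38363 was at 13.12 and 12.99 in the T fraction and at 12.19 and 11.62 in the IP fraction of EV-ST486, and at 12.60 and 12.33, and 11.36 and 11.38 in miR-155-ST486. By the first probe MYC was enriched with IP/T ratios of 5.24 and 5.31, by the second it was depleted with 0.45 and 0.47. MYC and SIK1 were the 2 genes of the 34 with an enriched and a depleted probe (IP/T ratio of at most 0.5) in both vectors. In EV-ST486, 6 genes had such a pair (0.408% of all genes), namely DNAJB6, HDAC5, MYC, PAFAH1B1, REEP3 and SIK1. In miR-155-ST486 there were 7 (0.408% of all), namely CLEC2D, DEF8, EIF1AD, MYC, PKN2, SIK1 and TUBA1C. Several of the genes on only one of these lists had a lowest probe near the threshold in both vectors, such as DNAJB6 (IP/T ratios of 0.45 and 0.52) and DEF8 (0.55 and 0.43).

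JADE1, a scaffold subunit of histone acetyltransferase complexes, had 2 probes on NM_199320 with log2 IP/T ratios of 2.25 and 2.04 in EV-ST486 and 2.77 and 2.46 in miR-155-ST486. The probe on NM_024900 had -0.33 and -0.50. On single arrays the values were 1.57 or higher against -0.26 or lower in EV-ST486, and 2.30 or higher against -0.48 or lower in miR-155-ST486. The rule, which uses the means of these arrays, favoured this separation. In the normexp settings the difference was between 1.02 and 2.29. HDAC5, a class IIa histone deacetylase, had mostly depleted probes. Its highest probe had ratios of 2.02 in EV-ST486 against 1.79 in miR-155-ST486, and the others had 0.39 and 0.32 in EV-ST486 and 0.41 and 0.44 in miR-155-ST486. The ratio of 2.02 came from 2.14 and 1.90 on the EV arrays. The lowest probe was detected in 7 of 8 channels, and in the normexp settings the difference of HDAC5 was between 0.44 and 1.30.

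BCL2L11 encodes BIM, a pro-apoptotic BH3-only protein with many splice forms. Its highest probe had log2 IP/T ratios of 1.95 and 2.62 in EV-ST486 and 2.64 and 2.51 in miR-155-ST486. The remaining 2 probes in the table had means of -0.12 and -0.30 in EV-ST486 and -0.37 and -0.24 in miR-155-ST486, so they exchanged their order between the vectors within the spread of the arrays. These probes were dim, detected in 7 and 6 of 8 channels. The difference of BCL2L11 was 2.59 and 2.95, and between 1.62 and 2.17 in the 4 normexp settings.

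CASP8, the initiator caspase of death receptor signalling, had a highest probe with means of 3.54 in EV-ST486 against 2.51 in miR-155-ST486, and a lowest probe with 0.11 and 0.25. The highest probe was not well above background in either T labelling of both vectors and was detected in both IP labellings. The ratio was therefore only bounded. With normexp-corrected signals it was at least 1.35-fold higher in the IP than in the T fraction of EV-ST486 and at least 1.46-fold in miR-155-ST486. A 4-fold difference between the CASP8 probes is therefore not shown by values above background.

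Of the genes that act on RNA, ZFP36L1, a zinc finger protein that binds AU-rich elements and promotes mRNA decay, had a highest probe with 2.77 and 2.54 in EV-ST486 and 2.65 and 2.66 in miR-155-ST486. Its lowest probe had -0.35 and -0.11, and -0.01 and -0.43. The difference was nearly the same in the vectors, at 2.89 and 2.87. HNRNPA1L2, a gene closely similar to the splicing factor HNRNPA1, had 10 probes on 1 transcript that formed a graded series from -0.91 to 1.36 in EV-ST486 and from -0.81 to 1.32 in miR-155-ST486. Its difference is uncertain because HNRNPA1 and its processed copies can hybridize to these probes, and the same holds for TUBA1C and the other alpha tubulins. Such cross-hybridization was not tested. The translation factor EIF5A2 had differences of 2.05 and 2.22. EIF1AD, which carries a domain of the initiation factor EIF1A, had differences of 2.26 and 2.76. In the 4 normexp settings these were between 0.42 and 1.28 for EIF5A2 and between 0.22 and 1.62 for EIF1AD, and for ZFP36L1 the difference was between 1.39 and 2.38.

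DNAJB6, an HSP40 co-chaperone with a long nuclear and a short isoform, had 3 probes assigned to NM_005494, the short form. They were all enriched, with means of 2.50, 2.43 and 1.69 in EV-ST486 and 2.36, 2.17 and 1.39 in miR-155-ST486. The 1 probe assigned to NM_058246, the long form, was at -1.14 and -0.95. Every array value of the 3 probes assigned to NM_005494 was at least 1.24 and every value of the other probe at most -0.78. The rule, which uses the means of these arrays, favoured this separation. Whether each probe reports only the form it is assigned to was not tested. All 4 probes were detected in all 8 channels, and the difference was 3.65 and 3.31, and between 1.53 and 2.70 in the normexp settings.

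**Figure D2:**
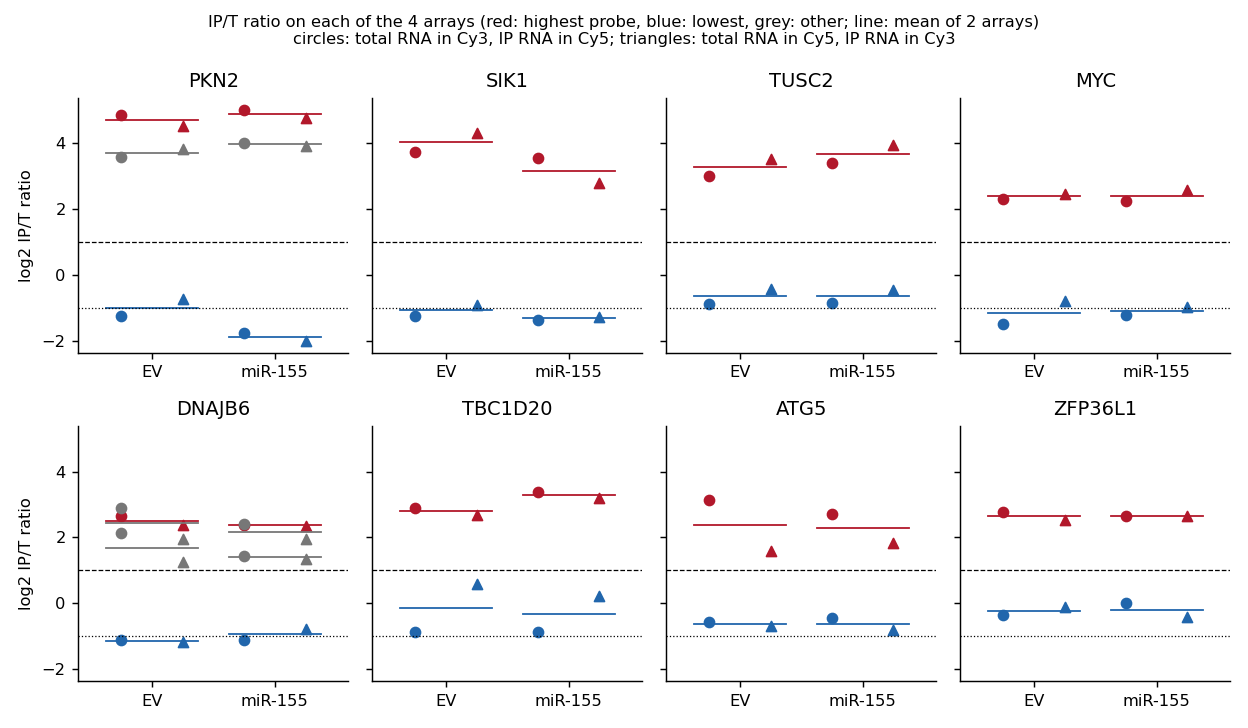
The log2 IP/T ratio (y axis) is shown on each of the 4 arrays for the 8 genes with the largest difference between probes, with EV and miR-155 arrays on the x axis, circles and triangles for the dye orientations and lines for their means. Red marks the highest, blue the lowest and grey the other probes, and in all 8 genes the red points lie above the blue points on every array. The genes were chosen by the means of these arrays, which favours this order.

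In the group of membrane traffic and autophagy, TBC1D20, a GTPase-activating protein of Rab1, had a highest probe at 2.90 and 2.69 in EV-ST486 and 3.37 and 3.21 in miR-155-ST486. Its lowest probe moved with the dye orientation, from -0.87 to 0.58 and from -0.87 to 0.21, and was detected in 6 of 8 channels. The differences of TBC1D20 were 2.94 and 3.62 and on single arrays between 2.11 and 4.24. ATG5, part of the conjugate that lipidates autophagosome proteins, had probes that differed 8.02-fold in EV-ST486 and 7.55-fold in miR-155-ST486, with log2 IP/T ratios of 3.13 and 1.59 for its highest probe on the EV arrays against -0.59 and -0.69 for its lowest. In the 4 normexp settings the difference was between 0.34 and 1.89 for TBC1D20 and between 0.64 and 1.75 for ATG5. USP6NL, a GTPase-activating protein of Rab5, had 2.60 and 2.24, but between 0.074 and 1.02 in the normexp settings.

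The ubiquitin system was represented by USP31, a deubiquitinase, UBE2Q1, a ubiquitin-conjugating enzyme, DCAF10, a substrate receptor of CUL4 ligases, and the RING finger protein RNF141. USP31 had 2 enriched probes, with means of 3.57 and 2.75 in EV-ST486 and 3.20 and 2.70 in miR-155-ST486, and a lowest probe at 0.96 and 0.57. The differences were 2.61 and 2.63 for USP31, 2.60 and 2.42 for UBE2Q1, 2.32 and 2.39 for DCAF10 and 2.61 and 2.10 for RNF141. In every normexp setting all 4 were below 2. The values were between 0.37 and 1.75 for USP31, 0.48 and 1.67 for UBE2Q1, 0.39 and 1.72 for DCAF10, and 0.67 and 1.62 for RNF141.

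Of genes of the cytoskeleton and membranes, TUBA1C, an alpha tubulin, had the lowest probe of the 34 genes by the mean of both vectors, with -1.99 and -1.68 in EV-ST486 and -1.58 and -1.52 in miR-155-ST486. Its highest probe had 0.78 and 1.19, and 1.45 and 1.09. The difference was 2.82 in both vectors, and the other 2 probes lay in between. PAFAH1B1, the dynein regulator LIS1, had 2 low probes with means of -1.04 and -1.42 in EV-ST486 and -0.74 and -1.32 in miR-155-ST486. Its remaining probe had 1.61 and 0.50 on the EV arrays and 1.22 and 0.65 on the miR-155 arrays. REEP3, a protein that shapes the endoplasmic reticulum, had differences of 2.80 and 2.50. CCDC88C, known as DAPLE in Wnt signalling, had a highest probe with 3.66 and 2.82 in EV-ST486 and 2.58 and 2.48 in miR-155-ST486, and a lowest probe at -0.23 and 0.10. In the normexp settings the difference was between 2.07 and 2.75 for TUBA1C and between 0.53 and 1.60 for PAFAH1B1. It was between 0.81 and 1.97 for REEP3 and between 0.89 and 2.13 for CCDC88C.

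The immune genes among the 34 were TOLLIP, an adaptor of Toll-like and IL-1 receptors, and CLEC2D, a lectin that is a ligand of the NK cell receptor CD161. CLEC2D had 4 probes that ran from 1.29 to -0.88 in EV-ST486. Its differences were 2.16 and 2.49, and between 0.92 and 1.75 in the normexp settings. TOLLIP had 2.65 and 2.25, but its highest probe was dim and the difference was between 0.032 and 0.16 in the normexp settings, the smallest of the 34. PPP1R2, inhibitor 2 of protein phosphatase 1, had 1 probe with 3.34 and 3.07 and 2 probes with 1.07 and 0.94 in EV-ST486 and 0.54 and 0.64 in miR-155-ST486. ALG13, an enzyme of N-linked glycosylation, had 2.93 and 3.28 on its highest and 0.57 and 0.64 on its lowest probe. Further genes were DEF8, JPT1, C9orf40, ADPRHL1 and MEAK7, with differences between 2.04 for MEAK7 in EV-ST486 and 2.96 for DEF8 in miR-155-ST486.

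Of the 34 genes, 7 (20.6%) had probes on 2 or more RefSeq transcripts, against 7.24% of all 1960 genes, and 13 (38.2%) had 3 or more probes, against 19.1%. A gene with more probes has a larger range by construction. In 6 of the 7 genes the probes assigned to different transcripts did not overlap in log2 IP/T ratio in either vector. Among them were DNAJB6 and JADE1 (above), DEF8, ALG13 and ADPRHL1. The corresponding share over all genes was not determined. Where a gene had 1 probe on each of 2 transcripts, as in ALG13 and ADPRHL1, the rule itself fixed this outcome. In the genes with more probes the rule favoured it. The count is therefore a description only. In DEF8, the probe assigned to NM_207514 had means of 1.64 and 1.75, and both probes assigned to NM_017702 lay between -1.20 and -0.85. In ADPRHL1, the probe assigned to NM_199162 had 1.63 and 1.75 and that assigned to NM_138430 had -0.71 and -0.31. In ALG13 the higher probe was that of NM_018466 and the lower that of NM_001039210. In CLEC2D, the last of the 7, the probes of NM_001004419 covered the whole range. In the remaining 27 genes, among them PKN2, SIK1, TUSC2 and MYC, all probes were assigned to 1 transcript, so the annotation of the arrays does not separate them. The position of the probes along the transcripts was not analysed here.

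In 34 of 34 genes (100%) the same probe had the highest ratio in EV-ST486 and miR-155-ST486. In 31 of 34 the lowest was the same as well, against 77.2% of all genes for highest and lowest together. The exceptions were BCL2L11, HDAC5 and PPP1R2, each with close lower probes. The rule left little room for another outcome, since the log2 IP/T ratios of all probes differed between the vectors by a median of 0.19. Across the 91 probes the log2 IP/T ratios of the vectors correlated with r = 0.98, those of the dye orientations with r = 0.93 in EV-ST486 against 0.97 in miR-155-ST486. These are descriptions, since the probes share arrays and were chosen for their spread. The difference was above 1 on all 4 arrays in 34 genes and at least 2 on all 4 in 20. Both counts were favoured by the rule, which uses the means of these arrays. Over all 1960 genes, 20 reached 2 in every dye orientation. The share of all genes above 1 on all 4 arrays was not determined.

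**Figure D3:**
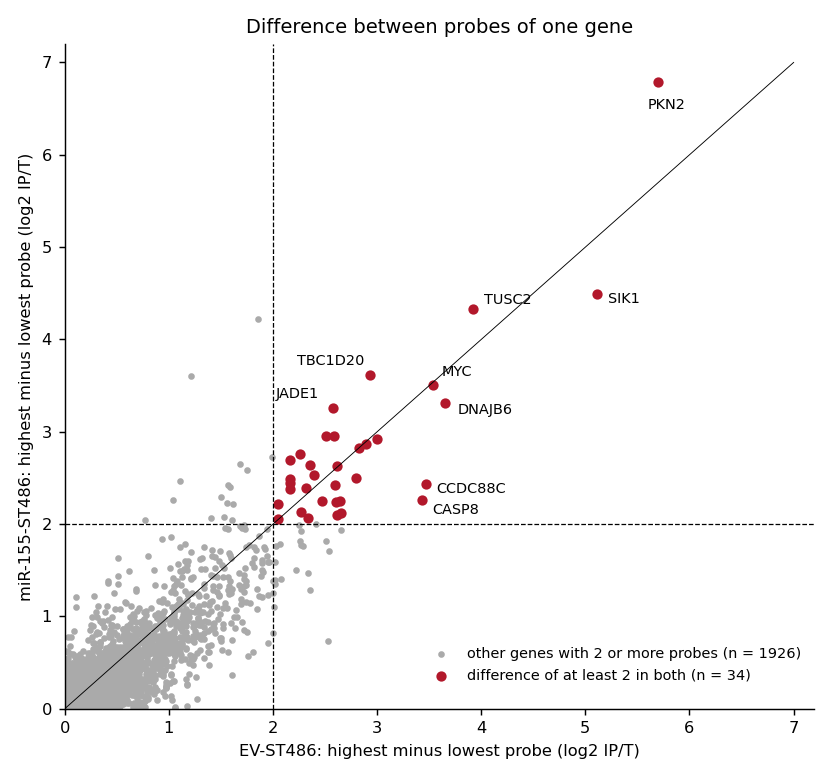
Each point is a gene with 2 or more probes, with the highest minus the lowest log2 IP/T ratio in EV-ST486 on the x axis and in miR-155-ST486 on the y axis, the line of equality and the threshold of 2 (dashed). The 34 genes (red) lie beyond both thresholds, 22 others beyond that of EV-ST486 only and 16 beyond that of miR-155-ST486 only.

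The miR-155/EV ratio of the IP/T ratios was taken for each probe as a description. The rule asks for a difference of at least 2 in both vectors, so the 16 genes that reached it in miR-155-ST486 only are not among the 34, and the values below do not show whether ectopic miR-155 moved probes apart in general. The log2 ratio had a median of 0.00 over the 34 highest probes (-1.03 to 0.52, with CASP8, described above, at the lower end) and 0.01 over the 34 lowest probes (-0.89 to 0.47). With normexp and loess the median of the highest probes was 0.56, and 0.23 when high local backgrounds were replaced. In the deposited values it lay within 0.5 of 0 in 30 of the highest and 33 of the lowest probes, against 89.1% of all probes. None of the 91 probes reached a miR-155/EV ratio of 2 (1.02% of all probes), and 0 of those detected in both fractions were at or below 0.5 (0.214% of all). The highest probe of CASP8 had a ratio below 0.5, but without a T signal above background this ratio was not measured. The difference between the probes was wider in miR-155-ST486 in 17 genes and in EV-ST486 in 17, and in 18 the direction was the same in both dye orientations.

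The difference changed by at least 1 in 3 genes, of which CASP8 lacked a T signal above background. In PKN2 it was wider by 1.09 in miR-155-ST486 (0.67 and 1.52 in the dye orientations), mostly through the lowest probe, whose IP signal was lower by 0.92 while its T signal moved by -0.03. In CCDC88C it was smaller by 1.04 (log2 change of -1.63 and -0.45), with a miR-155/EV log2 ratio of -0.71 on the highest probe. In CASP8 no change can be given. SIK1 had a similar miR-155/EV log2 ratio of -0.86 on its highest probe, but -0.18 and -1.54 in the dye orientations, a spread larger than the mean. By the mean, the largest positive miR-155/EV log2 ratios on the highest probe were found in JADE1 (0.44 and 0.59), TBC1D20 (0.47 and 0.52), TUSC2 (0.40 and 0.43) and ALG13 (0.38 and 0.34), in each case on both dye orientations and below the 2-fold threshold. Smaller ratios that were positive on both dye orientations were found on other highest probes, such as that of PKN2 (0.16 and 0.24).

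**Figure D4:**
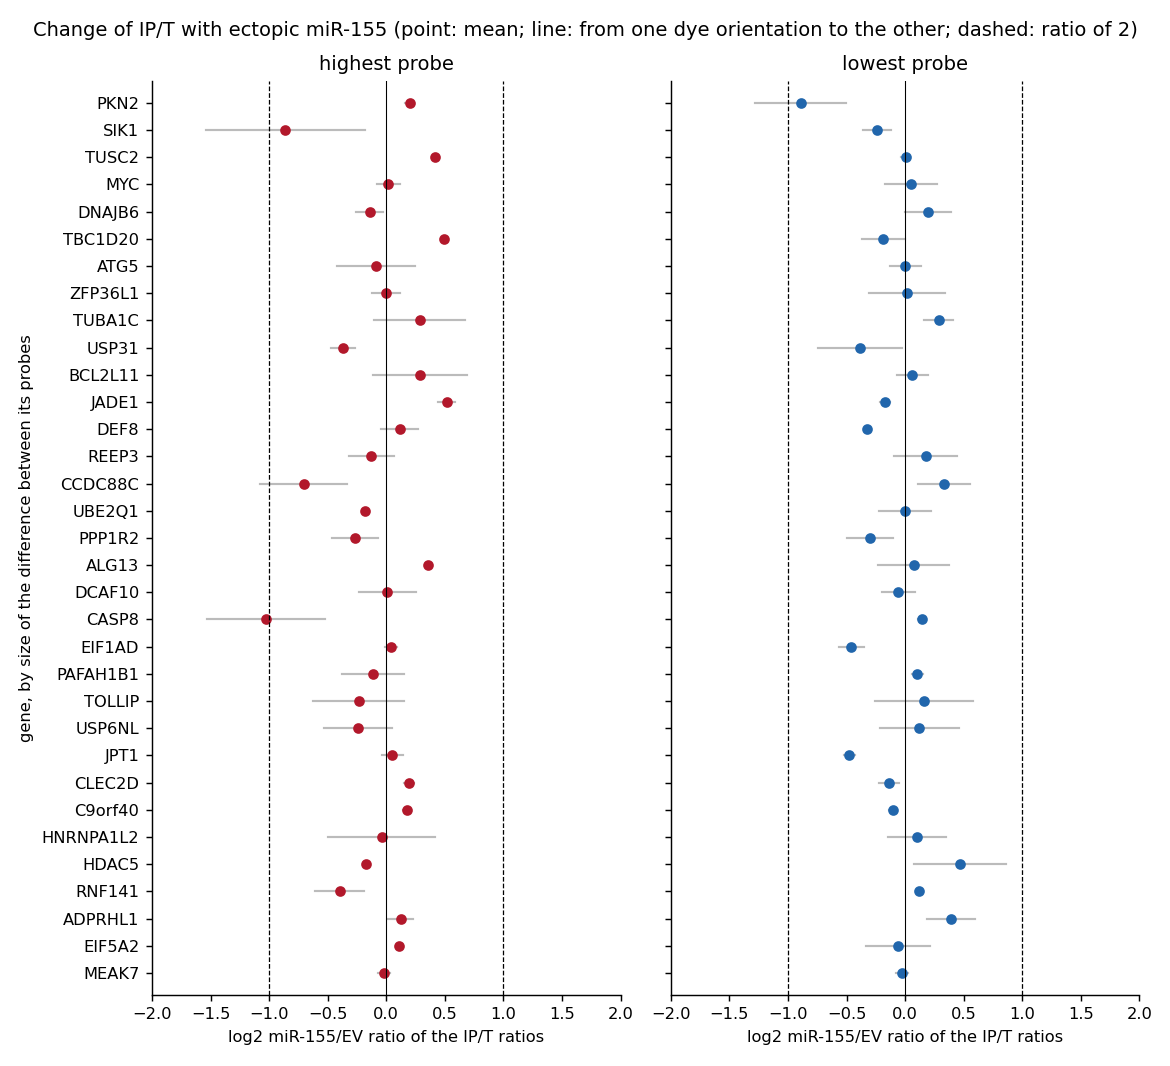
The x axis gives the log2 miR-155/EV ratio of the IP/T ratios of the highest (left) and lowest (right) probe of 33 of the 34 genes on the y axis, with points for the mean and lines from one dye orientation to the other. The points scatter around 0 within the 2-fold lines (dashed), apart from CASP8 on the left, at -1.03, whose T signal was not above background.

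The size of the differences depended on the background correction, also in some genes with both probes detected in all 8 channels, such as ZFP36L1 (above). Both the highest and the lowest probe were detected in all 8 channels in 24 of 34 genes, and in at least 1 labelling of every fraction in 33, all but CASP8. Detection in all 8 channels was reached by 77 of the 91 probes (84.6%), against 83.5% of all probes. The normexp model adds an offset, which brings the ratios of dim probes closer to 1, but why the differences became smaller was not tested. When the spot signals were corrected with it, 7 of the 34 genes kept a difference of at least 2 with quantile normalization and 5 with loess and Aquantile (PKN2, TUSC2, MYC, TUBA1C and JPT1). When extreme local backgrounds were replaced first, a step added after seeing the data, the numbers were 12 and 13, and the difference was at least 2 with either normalization in 12 genes, namely PKN2, TUSC2, MYC, DNAJB6, ZFP36L1, TUBA1C, BCL2L11, JADE1, DEF8, PPP1R2, ALG13 and JPT1. It was below 1 with at least 1 normalization in CASP8, TOLLIP and USP6NL, and the lower of both values lay between 1 and 2 in the other 19 genes. Across 11 alternative settings the probe with the highest ratio remained above the one with the lowest wherever both had values, except in TOLLIP (-0.032) with normexp and loess and no backgrounds replaced. The range over the probes that had values was at least 2 in all 11 settings in PKN2, TUSC2, MYC and TUBA1C.

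**Figure D5:**
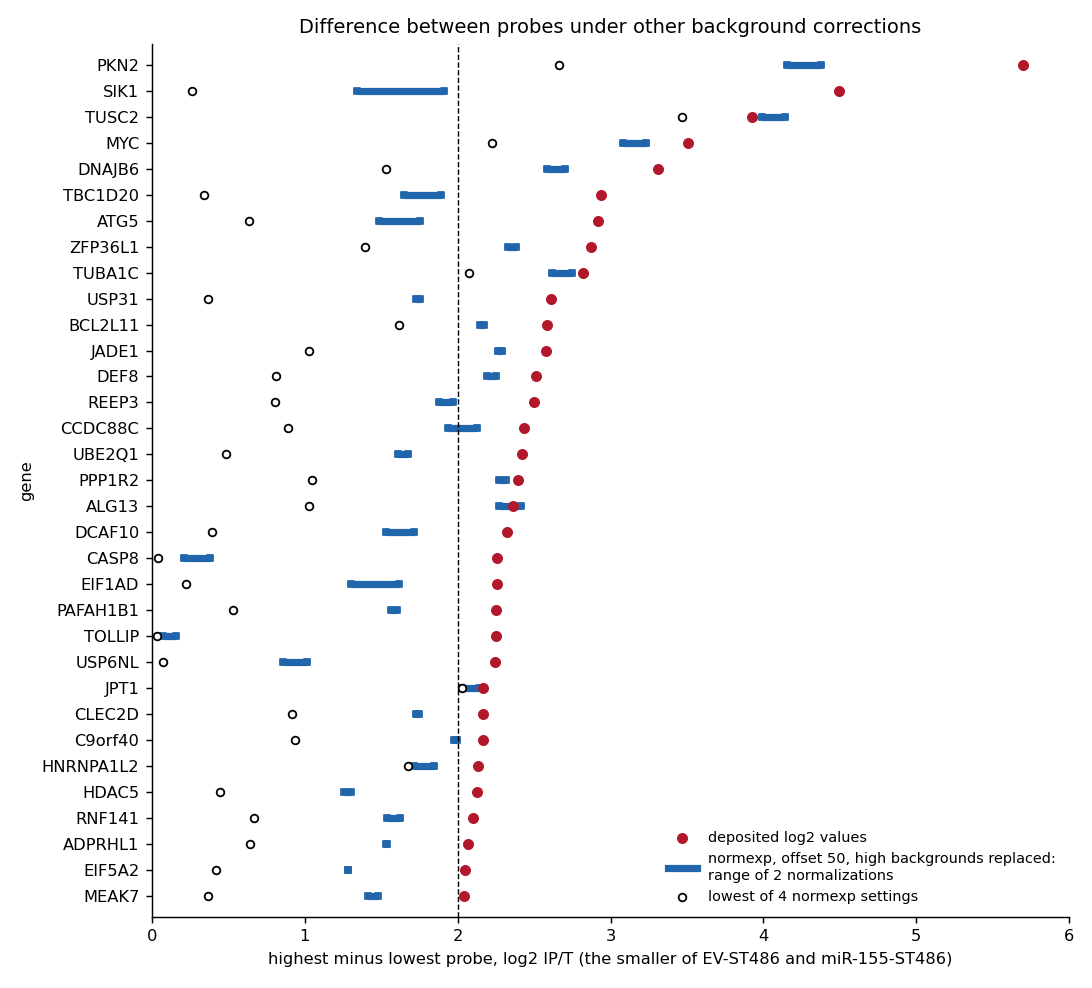
The x axis gives the highest minus the lowest log2 IP/T ratio, the smaller of both vectors, for 33 of the 34 genes on the y axis. Red points are the deposited log2 values, blue squares and bars the normexp values with high local backgrounds replaced and open circles the lowest of 4 normexp settings. TUSC2 and MYC keep differences above 2 throughout, whereas the open circles of CASP8 and TOLLIP lie at 0.038 and 0.032.

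Against 34 of 1960 genes in all (1.73%), 0 of 18 splicing factors of the SR and hnRNP families with 2 or more probes were among the 34, and 0 of 9 cleavage and polyadenylation factors. Of 15 genes with textbook alternative transcripts in lymphocytes, 2 were (BCL2L11 and CASP8). Of the 6 miR-155 targets that the paper selected for further tests, 4 had 2 or more probes, and 0 of these were among the 34. Of these, PSIP1 (1.85 in EV-ST486, 4.22 in miR-155-ST486) and TBRG1 (1.21 and 3.60) reached 2 in miR-155-ST486 only. With such small numbers, nothing can be read from these counts. The genes just inside the threshold were MEAK7 (2.04 in EV-ST486), EIF5A2 (2.05) and ADPRHL1 (2.07 in miR-155-ST486). Just outside were ASPH (1.99 in EV-ST486 against 2.73 in miR-155-ST486), MARCHF5 (2.25 and 1.99) and CDCA4 (2.41 and 2.00, the latter just below the threshold).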

How the data were processed

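The authors deposited scanner intensity values (Agilent Feature Extraction 10.5.1.1, background-subtracted and dye-normalized) and log2 values of 14453 probes, quantile-normalized over the 8 channels and filtered on detection and on the difference between labellings. The deposited log2 values were used as they are; 99.9% lay within 0.05 of values remade here from the intensities, with signals below 1 set to 1. The labellings were averaged. Detection (well above background, positive and significant) and the alternatives came from the intensities. Symbols were taken by RefSeq accession, which named 10412 of the probes in the table. One of the genes chosen and one marker are counted but not reported here by name. The genes and lists were chosen with earlier results of these data known.

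Named by rule were the 15 genes with the largest difference, members of the lists, the 8 largest with 3 or more probes, those changed by at least 1 between vectors, the 5 highest and 5 lowest single probes, probes past a miR-155/EV ratio of 2 or 0.5, and 3 genes on either side of the threshold. Other genes were named, and genes grouped by function, after their values were seen. Alternatives were normexp (offset 50, on median signals), other scalings, filters, thresholds and single dye orientations. The replacement of local backgrounds above 500 was added after seeing the data. The bounds for CASP8 used these values with loess and Aquantile, against its own T signal or the lowest detected signal, whichever was higher. The procedure was tested on simulated data. Computations were done in Python 3.11.15 (pandas 2.3.3, numpy 2.4.6; figures in matplotlib 3.10.9), and normexp and loess in limma 3.58.1 under R 4.3.3.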

Additional observations from a re-analysis of the deposited data

Results flagged for a closer look

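On the arrays, 7 further probes belonged to 5 of the 34 genes but were not in the deposited log2 table, and 3 of them were detected in at least 4 channels, which singles them out as data that the comparisons above do not use. For BCL2L11, probe A_23_P154426 had remade log2 IP/T ratios of 1.64 in EV-ST486 against 1.82 in miR-155-ST486, between its other probes, with 0.22 and 3.07 on the EV arrays. For CCDC88C, A_24_P136094 had 1.83 and 1.01, and A_24_P911663 had 1.28 and 0.37, also between its probes in the table. The labellings of these 3 probes differed by between 1.53 and 2.80 (log2), more than the 2-fold limit of the table.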

How the results depend on the processing

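The small number of arrays and the dim signals of several probes limit these values. Over all genes, the number with a difference of at least 2 (34) became 13 and 11 with normexp and quantile normalization, or normexp, loess and Aquantile, 17 and 20 when high local backgrounds were replaced first (chosen after seeing the data), 59 without the filter on labelling differences, 85 and 5 at thresholds of 1.5 and 3, and 20 when every dye orientation had to pass. Either dye orientation alone gave between 29 and 48. In the order of these 4 normexp settings the median difference (2.38) was 0.94, 0.74, 1.86 and 1.72. With normexp and quantile normalization, 14 genes had an enriched and a not enriched probe in EV-ST486, and as many in miR-155-ST486 (14), with loess 10 and 17. The median log2 miR-155/EV ratio of the highest probes was 0.56 with loess and 0.23 with loess after replacement of high backgrounds. Of the 34 genes themselves, 7, 5, 12 and 13 kept a difference of at least 2 in the 4 normexp settings. The share of genes with the same highest probe was 97.1% with quantile normalization, 94.1% with loess and 97.1% in the added settings. Single dye orientations gave median differences of 2.31 to 2.58, 30 to 32 and 32 to 33 genes, median miR-155/EV ratios of -0.017 to 0.077 on the log2 scale (highest) and -0.13 to 0.063 (lowest probes), and shares of 97.1% to 100%. The cause was not tested. No paired analysis was possible because each condition is 1 RNA sample and no test was run. Gene names as given by the arrays could not be tried, since the files hold RefSeq accessions only.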
